A study of Mus musculus with 18 samples.

Results

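Adenosine was added to mouse double negative T cells (DNT cells), T cells that carry neither CD4 nor CD8, and their RNA was compared with RNA of the same kind of cells without added adenosine. The comparison used 6 of the 18 libraries of the study, chosen by their labels. They were 3 libraries of cells given 400 µM adenosine for 6 h (ADO) and 3 libraries of untreated cells (DNT). In both groups the cells were wild type, derived from spleen and lymph node, had been made by conversion of CD4+ T cells, and had been stimulated through CD3 and CD28 with antibody, so that the untreated cells were activated too. A further 6 libraries were used for the last comparison, of cells that received an A2aR inhibitor at 250 nM, directed at the A2a receptor of adenosine, with 400 µM adenosine (RA) or without it (R). The study asked what purinergic signals do in these cells. The labels state neither the age of the animals nor whether replicate libraries stem from separate animals or cultures. The p-values therefore describe variation among these libraries, which may be technical.

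Outside cells, adenosine is formed from ATP by the ectoenzymes CD39, encoded by Entpd1, and CD73, encoded by Nt5e. It acts on G protein-coupled receptors, of which A2a (Adora2a) and A2b (Adora2b) stimulate adenylyl cyclase. The cyclic AMP that is made activates protein kinase A, which phosphorylates CREB and related transcription factors, and phosphodiesterases break cyclic AMP down. In T cells, cyclic AMP is known for damping signals from the T cell receptor and the production of cytokines.

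Library totals ran from 22280641 to 22428095 counts in ADO and from 21967706 to 23855783 counts in DNT. Values are CPM, read counts scaled to a common library size, and a gene is called higher or lower where the adjusted p was under 0.05 in edgeR's quasi-likelihood test over all genes tested. The cells carried T cell transcripts. All 13 T cell markers (among them Cd3e, Trac and Thy1) were measured, with summed levels of 5121 to 5169.8 CPM in ADO and 5025 to 5066 CPM in DNT. Cd4 was close to absent, with 13, 14 and 8 reads in ADO libraries and 25, 30 and 20 reads in DNT libraries. Cd8a had 349, 418 and 378 reads in ADO libraries and 531, 501 and 553 reads in DNT libraries, and Cd8b1 had 47 reads or fewer in every library. In bulk RNA, fewer cells of a type and less RNA per cell cannot be told apart.

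Adenosine moved the levels of about as many genes up as down. Of 14512 genes tested, 3707 were higher (25.5%) and 3574 lower (24.6%), or 50.2% in all. In a single fit of all 18 libraries 1439 were higher and 870 lower, and 60 of the 68 lists with a called member had over 1.5 times fewer calls. The median log2 fold change over all genes was 0.002. Most of these changes were small: 5639 of the called genes (77.4%) changed by less than 1.5-fold, and 71 by more than 4-fold, of which 42 were higher and 29 lower. With a change of at least 2-fold in addition, 364 genes were higher (2.51%) and 243 lower (1.67%). The replicates lay close together, with a common biological coefficient of variation of 2.74%, and the main axis of variation, which held 61.9% of the variance, parted all ADO from all DNT libraries. The groups did not overlap for 8090 genes (55.7%), so a gene or list is read here by the size of its change and against these shares.

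The 20 genes that rose most included genes of membrane receptors, secreted factors and interferon-induced proteins. Sgip1, which encodes an endocytic adaptor known mainly from neurons, had 7.58, 6.8 and 8.68 CPM in ADO libraries and 0.128, 0.325 and 0.134 CPM in DNT libraries. Igf1r (chr7:67952827-68233668, GRCm38), the receptor of insulin-like growth factor 1, had 45.1, 43.1 and 44.5 CPM in ADO libraries and 4.09, 3.2 and 3.48 CPM in DNT libraries. Every ADO library was far above every DNT library for each of them, with a fold change of 38.8 for Sgip1 (log2 fold change 5.28, SE 0.25, adjusted p = 1.62e-23) and 12.3 for Igf1r (log2 fold change 3.62, SE 0.08, adjusted p = 8.33e-37). Ramp3 (chr11:6658521-6677475), a partner of calcitonin-family receptors that couple to cyclic AMP, had 125, 123 and 121 CPM in ADO libraries and 18.7, 17.9 and 17 CPM in DNT libraries. Its groups were just as clearly apart, at a 6.88-fold higher level in ADO (log2 fold change 2.78, SE 0.05, adjusted p = 4.99e-43). Plaur, the urokinase receptor, averaged 24.7 ± 1.01 CPM in ADO and 3.89 ± 0.49 CPM in DNT (SD, n = 3 each, here and below), and Tgfb3, a secreted transforming growth factor, averaged 7.75 ± 0.301 CPM in ADO and 1.5 ± 0.0329 CPM in DNT. Both rose more than 5-fold. Dgat1, an enzyme that completes triglyceride synthesis, was the most abundant of the 20 largest rises, with 184, 188 and 188 CPM in ADO libraries and 56.8, 54.3 and 58.6 CPM in DNT libraries. The other members of that group were Ifit1bl1, Scrt1, Ptprf, Vgf, Abcb4, Bend4, Tbc1d4, Ifit3, Ms4a4a, Ier5l, Tnfrsf26, Rgs2, Slc41a2 and Ntrk3, with log2 fold changes of 1.61 to 2.74.

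A few genes were near the lower limit of detection in DNT, below 0.5 CPM on average, and above 2 CPM in ADO. Besides Sgip1 these were Muc3, Calca, Pde5a, Cd14, Reep1 and Spo11. Muc3, a membrane mucin, had 5.41, 4.78 and 4.72 CPM in ADO libraries and 0.426, 0.278 and 0.179 CPM in DNT libraries. Calca, which encodes calcitonin and calcitonin gene-related peptide, had 3.59, 3.38 and 4.67 CPM in ADO libraries and 0.597, 0.232 and 0.134 CPM in DNT libraries. For these genes the ADO libraries were all above the DNT libraries, but their levels stayed low, and no gene met the same limits in the opposite direction.

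Within the same limits, the 20 genes that fell most included many for secreted factors. Ccl20 and Cd70, at lower levels, were outside this ranking, with log2 fold changes of -2.81 and -2.17. Il2, the main growth factor of T cells, had 7.45, 9.22 and 8.95 CPM in ADO libraries and 61.9, 62.8 and 62.8 CPM in DNT libraries, a 7.31-fold lower level (log2 fold change -2.87, SE 0.06, adjusted p = 2.31e-37). Ccl1, a chemokine, had 76.8, 72.6 and 77.7 CPM in ADO libraries and 482, 501 and 496 CPM in DNT libraries, 6.51-fold lower. Lta, lymphotoxin alpha, had 40.3, 38.8 and 38.2 CPM in ADO libraries and 159, 163 and 161 CPM in DNT libraries. All ADO libraries were well below all DNT libraries for these genes. Fgf18, Il10, Il1a, Pdgfb, Csf2, Pdgfa and Il23a, all coding for secreted factors, were also among the 20 largest falls, with log2 fold changes of -2.25 for Fgf18 to -1.48 for Il23a. Pdgfb, a platelet-derived growth factor chain, averaged 18.5 ± 0.743 CPM in ADO and 70.0 ± 4.03 CPM in DNT, and Pdgfa, the other chain, averaged 10.7 ± 0.492 CPM in ADO and 32.5 ± 1.24 CPM in DNT. Mgll, the lipase that cleaves monoacylglycerols, had 3.15, 3.69 and 3.66 CPM in ADO libraries and 15, 16.9 and 15.6 CPM in DNT libraries. The transcription factor gene Batf3 averaged 14.3 ± 1.53 CPM in ADO and 39.2 ± 1.41 CPM in DNT. Bcl6b, another of the group, averaged 1.75 ± 0.305 CPM in ADO and 5.14 ± 0.373 CPM in DNT, and the stress-inducible Gadd45g averaged 116 ± 1.13 CPM in ADO and 313 ± 10.3 CPM in DNT. The remaining members were Crybg2, Stra6, Cyp1b1, Cilp2, Mst1r and Flt1, between 2.72-fold and 3.2-fold lower. Sgip1, Ramp3, Tgfb3, Bend4, Tnfrsf26, Mgll, Il1a, Csf2, Crybg2 and Pdgfa share exon bases with another gene, and since the use of strand in counting is not given in the sources used here, some of their reads may belong to that gene.

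**Figure D1:**
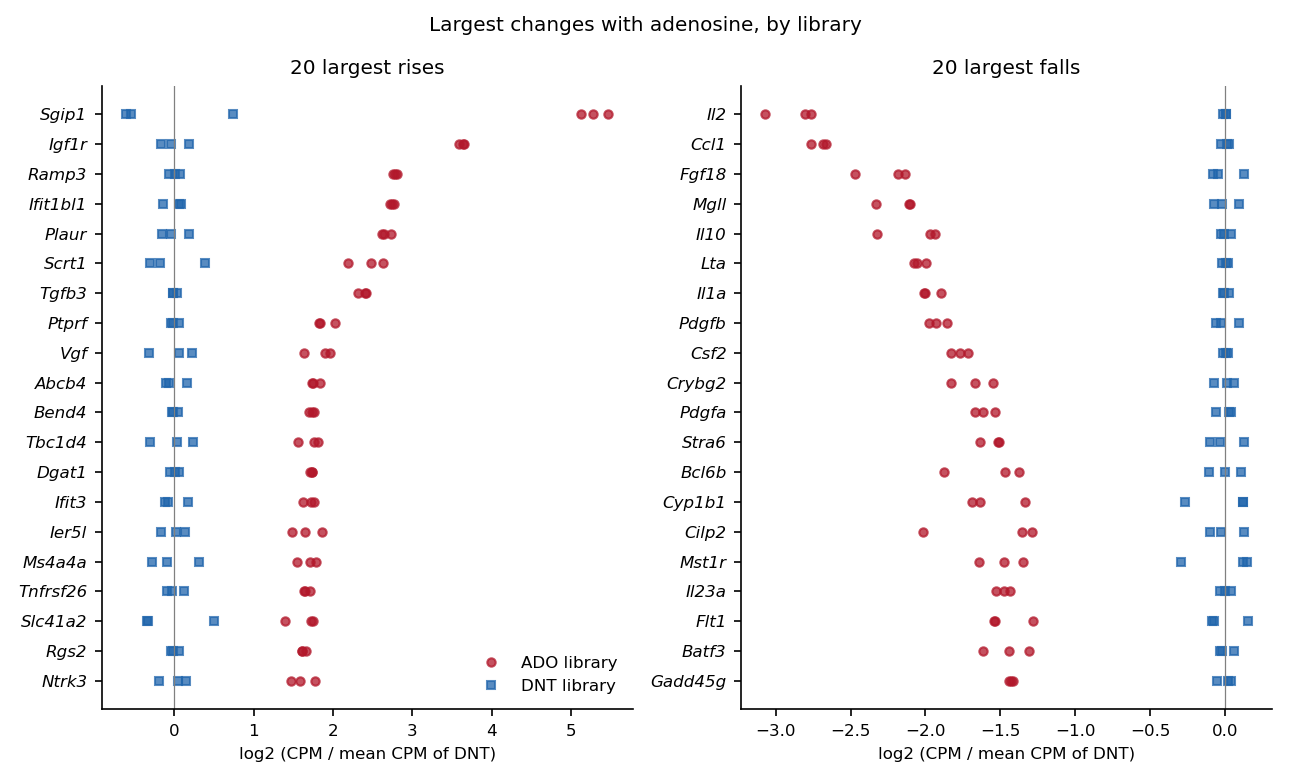
Each row is a gene and each point a library, plotted as the log2 ratio of its CPM to the mean CPM of the 3 DNT libraries. The 20 largest rises are on the left and the 20 largest falls on the right, among genes with at least 5 CPM in a group. For every gene the 3 ADO libraries lie apart from the 3 DNT libraries, as the choice of these genes required.

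The plot of the largest changes shows how tight the replicates were: for Il2, Ccl1 and Csf2 the 3 DNT libraries nearly coincide, while those of Sgip1 and Slc41a2, with few reads, spread most among these genes.

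The genes that make, sense and clear adenosine changed little. Of 17 tested, 5 were higher (29.4%) and 7 lower (41.2%), none by 2-fold, against 25.5% and 24.6% of all genes. The receptor gene Adora2a had 173, 172 and 171 CPM in ADO libraries and 158, 157 and 159 CPM in DNT libraries, a difference of 1.09-fold (log2 fold change 0.12, SE 0.03, adjusted p = 0.000134). Adora2b moved the other way, with 35.7, 37.6 and 38 CPM in ADO libraries and 42.8, 42.5 and 39.1 CPM in DNT libraries (adjusted p = 0.00848). Neither receptor overlapped between groups, and both differences were smaller than the median size of a called change (0.31 on the log2 scale). Nt5e rose most, with 71.3, 71.5 and 74.2 CPM in ADO libraries and 40.5, 39 and 38.6 CPM in DNT libraries, while Entpd1 fell, with 59, 56.9 and 57.7 CPM in ADO libraries and 79.2, 75.9 and 75.6 CPM in DNT libraries. The nucleoside transporter Slc29a2 averaged 10.7 ± 0.868 CPM in ADO and 18 ± 2.57 CPM in DNT and fell, whereas the related Slc29a1 averaged 65.5 ± 2.49 CPM in ADO and 63.6 ± 1.34 CPM in DNT and did not pass the test. The concentrative transporter Slc28a2 and Dpp4, whose product binds adenosine deaminase on human T cells, rose by 0.26 and 0.56 on the log2 scale. Nt5c2, a cytosolic nucleotidase, rose by 0.45. The intracellular enzymes Adk, Ahcy and Ampd2 and the transporter Slc29a3 fell, with log2 fold changes of -0.24, -0.11, -0.37 and -0.21. Ada, Adora3, Enpp1 and Nt5c3 did not pass, with log2 fold changes of 0.09, -0.10, 0.18 and -0.01. Adora1, Pnp and Ampd3 were not among the genes tested. Leaving out replicate 1 of ADO ended the calls of Adk (adjusted p = 0.154) and Adora2b (0.0586), and leaving out replicate 1 of DNT those of Ahcy (0.0582) and Adora2b (0.0571). Scaling by library size only ended the calls of Adora2b (0.0644) and Ahcy (0.0874).

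Among the purinergic P2 receptors and their partners, 4 of 13 tested rose (30.8%) and 3 fell (23.1%). These shares were near those of all genes, 25.5% and 24.6%. P2ry10, a lysophosphatidylserine receptor, rose most, with 165, 156 and 161 CPM in ADO libraries and 64.9, 67.8 and 64.8 CPM in DNT libraries (log2 fold change 1.28, SE 0.03, adjusted p = 1.33e-34). The ADP receptor P2ry12 averaged 13.5 ± 0.153 CPM in ADO and 7.93 ± 0.972 CPM in DNT, and the ADP-ribosyltransferase Art2b averaged 15.6 ± 1.4 CPM in ADO and 9.14 ± 1.01 CPM in DNT. P2ry14, the receptor of UDP-sugars, fell to 85.5 ± 1.81 CPM in ADO, against 106 ± 3.54 CPM in DNT. P2ry2 and P2rx1 fell too, at levels under 4 CPM. The call of P2rx1 was lost without replicate 1 of ADO (adjusted p = 0.0887) or of DNT (0.106).

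Genes that make, carry and use the cyclic AMP signal moved in both directions, not far from the shares of all genes. Of 21 adenylyl cyclase and protein kinase A genes tested, 7 rose and 7 fell, with a median log2 fold change of 0.08. These were 33.3% each, against 25.5% higher and 24.6% lower among all genes. Pkib, a peptide inhibitor of protein kinase A, rose from a low level: it had 3.28, 2.11 and 3.48 CPM in ADO libraries and 0.597, 0.835 and 0.402 CPM in DNT libraries. The catalytic subunit gene Prkaca averaged 46.9 ± 6.91 CPM in ADO and 32.3 ± 1.1 CPM in DNT, and Gnas, whose products include the stimulatory G protein subunit, averaged 50.1 ± 4.76 CPM in ADO and 36.9 ± 3.09 CPM in DNT. Both were higher in every ADO library, and Gnas overlaps antisense transcripts whose reads may be counted with it. Akap13, Pkig, Prkacb and Prkar1a rose as well, by 0.49, 0.39, 0.21 and 0.08 on the log2 scale. The regulatory subunit gene Prkar1b and the anchoring protein gene Akap5 fell, with log2 fold changes of -1.59 and -0.95, at under 2 CPM in every library. Akap1, Akap8, Akap9, Akap10 and Prkar2a fell by less, with log2 fold changes of -0.31 to -0.12. The cyclase genes Adcy3, Adcy4, Adcy5 and Adcy7 did not pass, and neither did Akap11, Prkar2b and Rapgef4, with log2 fold changes between -0.24 and 0.23. The call of Prkaca was lost when any of the 3 DNT libraries was left out (adjusted p from 0.055 to 0.067), and so were those of Pkig without replicate 2 of ADO (0.143), Akap5 without replicate 1 of ADO (0.0579) and Prkar1b without replicate 2 of DNT (0.082). Akap9 and Akap10 lost theirs without replicate 2 of ADO (0.0558 and 0.171) or replicate 3 of DNT (0.0847 and 0.0921), and with scaling by library size only (0.0906 and 0.159).

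Of 11 phosphodiesterase genes tested, 5 rose (45.5%) and 4 fell. Not every member of this list, Pde6d and Pde12 among them, is known to cleave cyclic nucleotides. Pde4d, a cyclic AMP-specific enzyme, had 66.3, 66.9 and 66.9 CPM in ADO libraries and 26.2, 26.3 and 25 CPM in DNT libraries, 2.58-fold higher (log2 fold change 1.37, SE 0.05, adjusted p = 5.57e-29). Pde4b, of the same family, had 78.5, 82.9 and 80.1 CPM in ADO libraries and 41, 43 and 42.9 CPM in DNT libraries. Both had groups far apart, and their replicates differed by a few CPM at most. The other family members went down: Pde4a averaged 21.7 ± 2.46 CPM in ADO and 24.8 ± 0.702 CPM in DNT and Pde4c averaged 0.471 ± 0.094 CPM in ADO and 1.37 ± 0.12 CPM in DNT. Pde5a, which cleaves cyclic GMP, averaged 3.23 ± 0.664 CPM in ADO and 0.456 ± 0.159 CPM in DNT and rose. Pde3b, an enzyme of both nucleotides, and Pde6d rose by 0.30 and 0.42 on the log2 scale. Pde7a and Pde12 fell, with log2 fold changes of -0.18 and -0.16, and Pde1b and Pde8a did not pass, at 0.07 and 0.20. The calls of Pde4a (adjusted p = 0.219) and Pde6d (0.0825) were lost without replicate 2 of ADO, and that of Pde4a also without replicate 3 of DNT (0.0607) and with scaling by library size only (0.0725).

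Of the 15 CREB factors, their coactivators and the kinases that control these, 3 rose and 6 fell. Crem, which encodes activators and the inducible repressor ICER, had 219, 209 and 220.0 CPM in ADO libraries and 88.9, 91.2 and 94.4 CPM in DNT libraries (log2 fold change 1.24, SE 0.03, adjusted p = 5.65e-36). Sik1, a kinase that holds CREB coactivators in the cytoplasm, averaged 119.9 ± 3.7 CPM in ADO and 96.5 ± 3.69 CPM in DNT, and Creb1 averaged 73.4 ± 0.587 CPM in ADO and 65.9 ± 0.979 CPM in DNT. Crem was thus the only one of the list past 2-fold. Atf1, Atf2, Atf7, Crtc1, Crebbp and Sik3 fell slightly, with log2 fold changes of -0.17 to -0.06. Creb3, Creb5, Crtc2, Crtc3, Ep300 and Sik2 did not pass, with log2 fold changes between -0.40 and 0.11. The call of Atf2 was lost without replicate 2 of ADO (adjusted p = 0.0997), that of Sik3 without replicate 1 of ADO (0.193) or of DNT (0.162), and that of Crtc1 when any of 4 libraries was left out, replicates 2 and 3 of ADO and 1 and 3 of DNT (0.0962 to 0.184). Scaling by library size only ended the calls of Atf2 (0.103), Crebbp (0.0634), Crtc1 (0.193) and Sik3 (0.65), and in the single fit of all 18 libraries 1 member rose and none fell.

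RGS proteins shorten signals of G protein-coupled receptors. Of 12 tested, 7 rose and 3 fell, with a median log2 fold change of 0.23. Rgs2 had 95.4, 95.1 and 98.3 CPM in ADO libraries and 30.8, 30.4 and 32.6 CPM in DNT libraries, 3.08-fold higher (log2 fold change 1.62, SE 0.04, adjusted p = 3.46e-34), and the ADO libraries did not come near the DNT libraries. Rgs9 averaged 13.8 ± 0.794 CPM in ADO and 6.35 ± 0.08 CPM in DNT, and Rgs12 averaged 14.2 ± 1.77 CPM in ADO and 6.89 ± 0.247 CPM in DNT. The abundant Rgs16 went the other way, averaging 574 ± 12.8 CPM in ADO and 722 ± 3.96 CPM in DNT, as did Rgs3, averaging 125 ± 2.79 CPM in ADO and 171 ± 6.04 CPM in DNT.

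Cytokine genes fell more often than they rose. Of 26 cytokine genes tested, 6 rose (23.1%) and 16 fell (61.5%), with a median log2 fold change of -0.24. In a single fit of all 18 libraries 4 rose and 7 fell. Besides those given above, Ifng, the gene of interferon gamma, had 628, 595 and 580.1 CPM in ADO libraries and 1505, 1483 and 1529.7 CPM in DNT libraries. Il9 averaged 0.692 ± 0.273 CPM in ADO and 2.3 ± 0.186 CPM in DNT, and Csf2, which encodes the growth factor GM-CSF, averaged 109 ± 4.22 CPM in ADO and 374 ± 4.27 CPM in DNT. Some members rose. Areg, the epidermal growth factor receptor ligand amphiregulin, had 31.8, 32.6 and 29.9 CPM in ADO libraries and 10.1, 11.9 and 11 CPM in DNT libraries (log2 fold change 1.52, SE 0.07, adjusted p = 1.84e-23). Il31, Il16 and Il3 rose by 1.06, 0.56 and 0.45 on the log2 scale. The list therefore did not move in a common direction: 3 of its members, Tgfb3, Areg and Il31, rose by more than 2-fold, and 6 fell by as much or more. Il31, near 1 CPM, lost its call without replicate 3 of ADO (adjusted p = 0.0641).

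TNF family ligands fell in 9 of 14 cases, with a median log2 fold change of -0.38, and 1 rose. Tnf had 192, 201 and 184 CPM in ADO libraries and 424, 420.3 and 415 CPM in DNT libraries (log2 fold change -1.12, SE 0.02, adjusted p = 1.27e-37). Cd70, the ligand of the costimulatory receptor CD27, averaged 0.734 ± 0.239 CPM in ADO and 3.33 ± 0.336 CPM in DNT, and Tnfsf10, which encodes the death ligand TRAIL, averaged 45.1 ± 1.09 CPM in ADO and 90.9 ± 0.66 CPM in DNT. Cd40lg, through which helper T cells activate B cells, was the member that rose, at 18 ± 1.22 CPM in ADO and 13.3 ± 0.573 CPM in DNT. Chemokine ligands fell in 8 of 18 cases and rose in 4. Ccl4, an inflammatory chemokine, had 747, 738 and 760.3 CPM in ADO libraries and 1562, 1591 and 1534 CPM in DNT libraries, and Ccl9 averaged 20.7 ± 0.968 CPM in ADO and 52.6 ± 2.52 CPM in DNT. Xcl1, which attracts cross-presenting dendritic cells, averaged 514 ± 20.7 CPM in ADO and 894 ± 8.27 CPM in DNT. Cxcl3, a neutrophil chemoattractant, averaged 43 ± 0.399 CPM in ADO and 22.2 ± 1.15 CPM in DNT and rose. Ccl20 fell by more than any other member tested, with a log2 fold change of -2.81, from counts near the limit of detection.

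**Figure D2:**
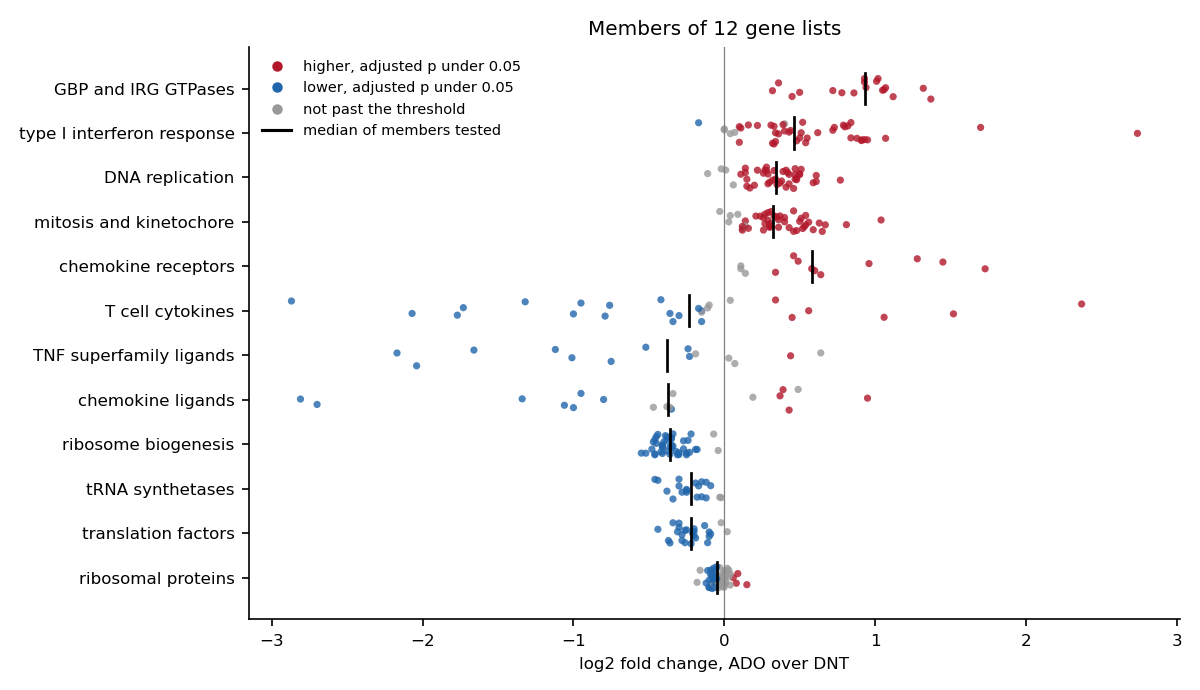
Each point is a tested member of a gene list at its log2 fold change (ADO over DNT), coloured by its call at adjusted p 0.05, and the black bar is the median of the list. Nearly all members of the interferon and cell cycle lists lie right of 0 and all those of the ribosome biogenesis list left of it, while cytokines and chemokine ligands reach from -2.87 to 2.37.

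The plot of list members separates lists with many small changes in the same direction, such as ribosome biogenesis, from lists with a few large ones, such as the cytokines.

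Receptors for chemokines went the other way from the ligands. Of 13 tested, 10 rose (76.9%), none fell, and the median log2 fold change was 0.58. Ccr7, which guides T cells into lymph nodes, had 55, 51.7 and 55.3 CPM in ADO libraries and 22.8, 22.7 and 21.3 CPM in DNT libraries (log2 fold change 1.28, SE 0.05, adjusted p = 6.56e-26). Cxcr4, the receptor of the retention chemokine CXCL12, averaged 18.4 ± 1.73 CPM in ADO and 6.71 ± 0.762 CPM in DNT, and Cxcr3, a receptor of type 1 T cells, averaged 15.2 ± 0.675 CPM in ADO and 7.83 ± 0.944 CPM in DNT. Ccr8 rose from a low level, averaging 2.76 ± 0.282 CPM in ADO and 0.832 ± 0.0627 CPM in DNT. Genes of quiescence and lymph node homing rose in 15 of 26 cases and fell in 8. Txnip, an inhibitor of thioredoxin and glucose uptake, averaged 155 ± 4.82 CPM in ADO and 64.3 ± 1.15 CPM in DNT, and S1pr1, the receptor for egress from lymph nodes, averaged 4.44 ± 0.957 CPM in ADO and 2.11 ± 0.48 CPM in DNT. Il7r, the receptor subunit for the survival cytokine IL-7, averaged 36.7 ± 0.419 CPM in ADO and 18.4 ± 0.98 CPM in DNT. Among the members that fell were Slfn2, Klf3 and Klf7, with log2 fold changes of -0.49, -0.60 and -0.53.

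Of 31 interleukin and growth factor receptor genes, 14 rose and 6 fell. Ifngr1, the ligand-binding chain of the interferon gamma receptor, had 373, 367 and 373 CPM in ADO libraries and 132, 125 and 129.8 CPM in DNT libraries, 2.87-fold higher (log2 fold change 1.52, SE 0.03, adjusted p = 4.99e-43), while its ligand gene Ifng fell. Il4ra and Il1rl1 fell, with log2 fold changes of -0.32 and -0.54. TNF receptor family genes rose in 7 of 19 cases (36.8%) and fell in 6 (31.6%), against 25.5% and 24.6% of all genes. Tnfrsf26 and its neighbour Tnfrsf23 both rose. Tnfrsf26 averaged 20.6 ± 0.616 CPM in ADO and 6.51 ± 0.487 CPM in DNT. Tnfrsf23 averaged 7.89 ± 0.953 CPM in ADO and 3.54 ± 0.62 CPM in DNT. Tnfrsf4, which encodes OX40, fell to 17.1 ± 0.163 CPM in ADO, against 26 ± 1.22 CPM in DNT.

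Inhibitory and costimulatory receptors rose in 16 of 28 cases and fell in 9. Icos, a costimulatory receptor of the CD28 family, had 88.5, 82.2 and 84 CPM in ADO libraries and 31.7, 31.9 and 38.2 CPM in DNT libraries, and Ctla4, an inhibitory one, had 49.2, 42.3 and 44.8 CPM in ADO libraries and 16.5, 18.9 and 22 CPM in DNT libraries. In both, the lowest ADO library was above the highest DNT library by more than 20 CPM. Cd200r1, the receptor of CD200, averaged 19.1 ± 1.24 CPM in ADO and 8.95 ± 0.56 CPM in DNT, and Cd101 averaged 9.61 ± 0.0811 CPM in ADO and 4.62 ± 0.244 CPM in DNT. Nrp1, Cd200, Cd5 and Cd69 fell, with log2 fold changes of -1.11, -0.81, -0.72 and -0.51. Pdcd1, which encodes PD-1, and Tigit, chosen after their values were seen, rose by 0.68 and 0.70 on the log2 scale. NK cell receptors and adaptors rose in 15 of 22 cases (68.2%) and fell in 4 (18.2%), with a median log2 fold change of 0.36. In a single fit of all 18 libraries 5 rose and 1 fell. Klrd1, the CD94 chain of NKG2 receptors, had 196, 194 and 188 CPM in ADO libraries and 82.4, 81.7 and 86.3 CPM in DNT libraries (log2 fold change 1.21, SE 0.03, adjusted p = 5.73e-35). Klrk1, which encodes NKG2D, averaged 138 ± 3.16 CPM in ADO and 91.1 ± 1.56 CPM in DNT. Crtam, a receptor of activated cytotoxic cells, fell to 454 ± 4.21 CPM in ADO, against 832 ± 9.78 CPM in DNT. Members of the Klra and Klrc families are near-identical in sequence, so reads may have been split between them.

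**Figure D3:**
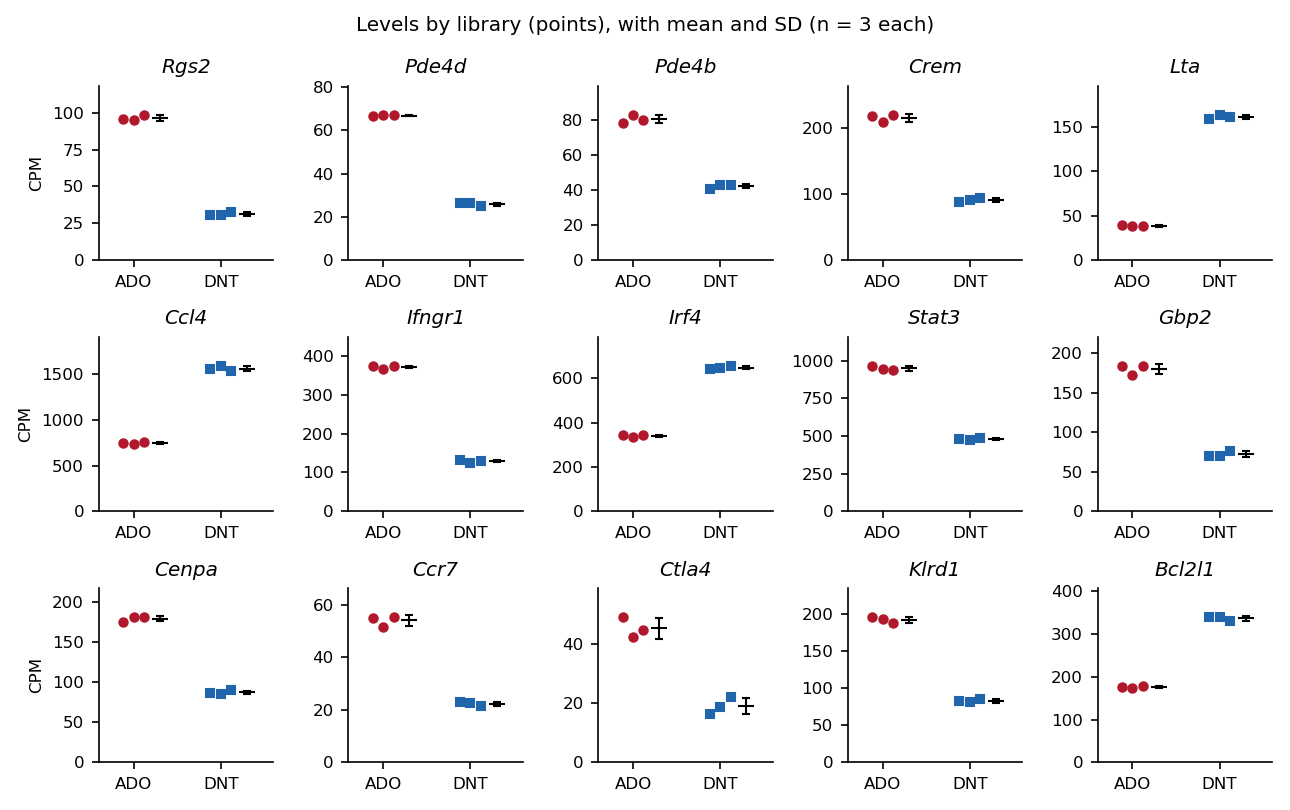
CPM of 15 genes in each of the 3 ADO and 3 DNT libraries (points), with the mean and SD beside them, each panel starting at 0. In every panel the 2 groups are apart, with Rgs2, Pde4d, Crem, Ifngr1, Gbp2 and Klrd1 higher in ADO and Lta, Ccl4, Irf4 and Bcl2l1 lower.

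The plot of levels by library also holds Pde4b, Ccr7, Stat3, Cenpa and Ctla4, which were higher in ADO and whose values are given with their lists; of the 15 genes, Ctla4 spread most around its mean.

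Transcription factors induced by T cell receptor signals were split. Of 19 NR4A, EGR and Myc family genes, 6 rose (31.6%) and 9 fell (47.4%), against 25.5% and 24.6% of all genes. Mycn had 47.8, 50.2 and 49.7 CPM in ADO libraries and 124, 118 and 116 CPM in DNT libraries, 2.43-fold lower (log2 fold change -1.28, SE 0.04, adjusted p = 3.5e-32). Myc, a driver of growth, had 463, 465 and 451 CPM in ADO libraries and 679, 672 and 671 CPM in DNT libraries, and Egr2, a factor induced by the T cell receptor, had 161, 168 and 155 CPM in ADO libraries and 330.3, 329.9 and 332 CPM in DNT libraries. All were lower in every ADO library. The Myc antagonists Mxi1, Mxd3 and Mxd4 rose. Mxi1 averaged 13.4 ± 0.136 CPM in ADO and 6.16 ± 1.12 CPM in DNT, and Mxd4 averaged 25.8 ± 1.59 CPM in ADO and 15.5 ± 1.28 CPM in DNT. Nr4a1 also rose, averaging 486 ± 9.34 CPM in ADO and 341 ± 5.69 CPM in DNT. Of 15 AP-1 factors, 5 rose, Fos and Fosl2 among them (0.97 and 0.47 on the log2 scale), and 8 fell, among them Atf3 at -0.63. Irf4, which scales with the strength of T cell receptor signals, had 343, 334 and 344 CPM in ADO libraries and 643, 646 and 655 CPM in DNT libraries (log2 fold change -0.93, SE 0.02, adjusted p = 5.24e-38). Stat3, which transmits signals of IL-6 family cytokines, had 964, 942 and 937 CPM in ADO libraries and 481, 472 and 486 CPM in DNT libraries. Its rise was 1.98-fold, and its gene overlaps the end of Stat5a by 72 bases.

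Of 29 lineage factors, 12 rose and 13 fell. Tcf7 and Rora, which encode TCF-1 and ROR alpha, both rose: Tcf7 averaged 66.1 ± 2.38 CPM in ADO and 34.3 ± 1.21 CPM in DNT, and Rora averaged 66.3 ± 3.96 CPM in ADO and 34.1 ± 2.03 CPM in DNT. Bcl6, a repressor of effector differentiation, averaged 23.6 ± 0.96 CPM in ADO and 15 ± 2.42 CPM in DNT. Its antagonist Prdm1 fell to 18.7 ± 0.606 CPM in ADO, against 27.5 ± 0.187 CPM in DNT. Tbx21, which encodes the type 1 factor T-bet, fell, with a log2 fold change of -0.55.

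T cell receptor machinery fell in 17 of 34 cases and rose in 12, with a median log2 fold change of -0.11. Malt1, a protease that activates NF-kB, had 213, 213 and 205 CPM in ADO libraries and 369.8, 367 and 375 CPM in DNT libraries, and Lcp2, which encodes the adaptor SLP-76, averaged 471 ± 10.7 CPM in ADO and 665 ± 1.56 CPM in DNT. Dgka, a kinase that removes the second messenger diacylglycerol, rose to 84.2 ± 1.37 CPM in ADO, against 45.7 ± 2.57 CPM in DNT. In the NF-kB list, 6 of 22 rose (27.3%) and 8 fell (36.4%), against 25.5% higher and 24.6% lower among all genes. Rel, which encodes c-Rel, fell to 266 ± 4.52 CPM in ADO, against 397 ± 11.7 CPM in DNT. NFAT and calcineurin genes rose in 5 (35.7%) and fell in 6 (42.9%) of 14 cases. Genes of IL-2 signalling through STAT5 fell in 11 of 18 cases (61.1%) and rose in 4. Jak2, a cytokine receptor kinase, had 226, 220.2 and 232 CPM in ADO libraries and 389.7, 387 and 384 CPM in DNT libraries, and Pim3, Stat5a and Pim2 fell with log2 fold changes of -0.55, -0.50 and -0.47. Socs3, a feedback inhibitor of cytokine receptors, rose to 38.7 ± 0.808 CPM in ADO, against 25.7 ± 0.81 CPM in DNT.

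Interferon-induced genes rose as a group. All 18 guanylate-binding proteins and immunity-related GTPases, which attack the vacuoles of intracellular pathogens, were higher in ADO (100%, against 25.5% of all genes), with a median log2 fold change of 0.94. Gbp2 had 184, 172 and 184 CPM in ADO libraries and 70.4, 69.6 and 76.8 CPM in DNT libraries (log2 fold change 1.32, SE 0.03, adjusted p = 1.66e-33), and Irgm2 had 87.3, 89.4 and 85.8 CPM in ADO libraries and 41.9, 42.8 and 40.7 CPM in DNT libraries. Gbp11 averaged 8.38 ± 0.539 CPM in ADO and 3.22 ± 0.763 CPM in DNT. The groups were apart for each of them, and 8 of the 18 rose by at least 2-fold. Reads of near-identical GBP, Tgtp and Irgm copies may have been split between genes, so single values in these families are less certain than the count. Of 44 genes of the type I interferon response, 38 rose (86.4%) and 1 fell, with a median log2 fold change of 0.46. Ifit3, an antiviral effector, had 18, 19.3 and 19.7 CPM in ADO libraries and 5.37, 6.59 and 5.53 CPM in DNT libraries, and Ifit2, of the same family, averaged 29.8 ± 0.243 CPM in ADO and 14.2 ± 0.586 CPM in DNT. Samhd1, which depletes deoxynucleotides, averaged 198 ± 6.51 CPM in ADO and 103 ± 4.84 CPM in DNT. Isg20 was the member that fell, at 52.4 ± 2.48 CPM in ADO and 59 ± 1.39 CPM in DNT. In the Ifi200 and Schlafen families, 11 of 17 rose and 3 fell, and Ifi213 rose to 45.2 ± 3.23 CPM in ADO, against 16.8 ± 0.567 CPM in DNT. The Ifit3 and Ifi200 families hold close copies, and how the authors' counting split reads between them is not given in the sources used here. Interferon regulatory factors and STATs rose in 8 of 14 cases and fell in 2. Irf7, the amplifier of type I interferon, averaged 112 ± 1.96 CPM in ADO and 60.3 ± 1.99 CPM in DNT. Class I antigen presentation genes rose in 17 of 25 cases and fell in 5. The falls, such as Calr at -0.21 on the log2 scale, include chaperones that also belong to the endoplasmic reticulum list. Psmb9, an immunoproteasome subunit whose gene overlaps Tap1, rose to 108 ± 4.87 CPM in ADO, against 70.6 ± 2.92 CPM in DNT.

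Promoter sequences of 5 genes that rose are shown because they hold the letters of elements known to be bound by interferon-activated factors, by CREB family factors or by AP-1. The genes were picked after a search found the letters, and a match describes the sequence and not binding. The windows are of 120 bases from RefSeq's promoters (GRCm38.p6), with the element in capitals and all written in the direction of transcription, plus strand. The core of the interferon-stimulated response element, GAAANNGAA on either strand, stands at -58 from the RefSeq start in Gbp2 (chr3:142620543-142620662), at -64 in Irgm2 (chr11:58214857-58214976) and at -155, -121 and -102 in Ifit3 (chr19:34583349-34583468). The cAMP response element TGACGTCA, a palindrome, stands at -61 in Areg (chr5:91139479-91139598). The AP-1 element, TGAGTCA on either strand, stands at -69 in Plaur (chr7:24462363-24462482), and Gbp2 holds it too, at -102, in lower case here.
Gbp2: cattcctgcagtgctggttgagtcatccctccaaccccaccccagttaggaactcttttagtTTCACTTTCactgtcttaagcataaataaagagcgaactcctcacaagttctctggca
Irgm2: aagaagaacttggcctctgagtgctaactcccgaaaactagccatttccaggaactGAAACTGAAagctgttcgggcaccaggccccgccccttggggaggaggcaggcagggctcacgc
Ifit3: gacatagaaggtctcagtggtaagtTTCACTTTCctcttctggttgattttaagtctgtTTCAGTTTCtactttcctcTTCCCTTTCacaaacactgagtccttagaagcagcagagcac
Areg: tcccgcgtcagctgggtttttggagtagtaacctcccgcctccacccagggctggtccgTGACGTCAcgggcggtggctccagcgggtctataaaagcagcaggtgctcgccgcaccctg
Plaur: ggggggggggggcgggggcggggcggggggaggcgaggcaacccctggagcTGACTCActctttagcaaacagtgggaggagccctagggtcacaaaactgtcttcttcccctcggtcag
Over all 32851 promoters of 300 bases in the same table, 8.56% held the interferon core, 5.2% the AP-1 element and 1.79% the cAMP response element, and these motifs do not overlap each other in the windows shown. No share is given for the genes that changed, since promoters were found for 61.0% of the 607 genes that changed by at least 2-fold. The same elements also stood in promoters of genes that fell by at least 2-fold. Ccl1, Csf2 and Crybg2 held the interferon core, Cdkn2b and Flt1 the cAMP response element, and Il1a and Il9 the AP-1 element. The part of these elements in the changes was not tested.

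Genes of cell division rose together, by less than 2-fold in nearly all cases. Of 44 DNA replication genes, 40 rose (90.9%) and none fell, with a median log2 fold change of 0.35. Lig1, the ligase that joins Okazaki fragments, had 85.5, 86.2 and 80.5 CPM in ADO libraries and 51.6, 46.3 and 49.8 CPM in DNT libraries (log2 fold change 0.77, SE 0.04, adjusted p = 4.15e-21), and Prim1, the primase subunit, averaged 47.8 ± 0.243 CPM in ADO and 31.4 ± 2.29 CPM in DNT. Of 48 mitosis genes, 41 rose (85.4%) and none fell. In a single fit of all 18 libraries, 15 replication and 21 mitosis genes rose. Cenpa, the centromere histone, had 176, 181 and 181 CPM in ADO libraries and 86.7, 85.5 and 89.9 CPM in DNT libraries, and Ccnb2, a mitotic cyclin, averaged 33.3 ± 1.55 CPM in ADO and 19 ± 1.69 CPM in DNT. The regulators of the cycle did not follow a common direction, with 14 of 29 higher and 12 lower. E2f2, an activator of replication genes, rose to 25 ± 1.71 CPM in ADO, against 11.7 ± 1.04 CPM in DNT, but so did Cdkn1b, the inhibitor p27, at 42.9 ± 1.08 CPM in ADO and 24.7 ± 1.07 CPM in DNT. Ccnd2, the cyclin that starts the cycle on growth signals, had 820.1, 794 and 795 CPM in ADO libraries and 1284, 1259.8 and 1285 CPM in DNT libraries, and its partner gene Cdk6 averaged 460.4 ± 8.45 CPM in ADO and 616 ± 3.05 CPM in DNT. Cdkn2b, which encodes an inhibitor of that pair, fell as well, to 18.6 ± 0.653 CPM in ADO, against 39.4 ± 1.81 CPM in DNT.

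Genes for making ribosomes and proteins fell together, again by small amounts. Of 43 ribosome biogenesis genes, none rose and 41 fell (95.3%, against 24.6% of all genes), with a median log2 fold change of -0.36. Gnl3, a nucleolar GTPase, had 185, 178 and 181 CPM in ADO libraries and 264, 262 and 271 CPM in DNT libraries (log2 fold change -0.55, SE 0.03, adjusted p = 2.15e-24), and Npm1, the histone chaperone of the nucleolus, had 1449, 1439 and 1466 CPM in ADO libraries and 2013, 1987 and 2087 CPM in DNT libraries. Wdr43 and Wdr75, parts of the machinery that processes the small subunit, fell with log2 fold changes of -0.52 and -0.47. Of 25 translation factors, 23 fell (92.0%), and of 20 cytosolic tRNA synthetases 18 fell, and no member of either list rose. Eif1a, which helps the ribosome find the start codon, averaged 196 ± 7.73 CPM in ADO and 266 ± 7.45 CPM in DNT, and Yars, the tyrosyl-tRNA synthetase, averaged 163 ± 2.53 CPM in ADO and 224 ± 6.23 CPM in DNT. In a single fit of all 18 libraries, 23 ribosome biogenesis genes, 3 translation factors and 7 tRNA synthetases fell. Ribosomal protein genes moved little: 4 of 59 rose and 25 fell with a median of -0.05. Scaling by library size alone turned this round, to 16 higher and 6 lower, and the single fit called none.

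Genes of the amino acid response driven by ATF4 fell in 20 of 25 cases (80.0%), and none rose; in the single fit of all 18 libraries 8 fell and 1 rose. Stc2, a secreted glycoprotein, averaged 29.4 ± 1.17 CPM in ADO and 44 ± 0.773 CPM in DNT, and Pycr1, an enzyme of proline synthesis, averaged 13.9 ± 1.28 CPM in ADO and 20.2 ± 1.35 CPM in DNT. Amino acid transporters fell in 10 of 17 cases and rose in 2. Slc7a5, the large neutral amino acid transporter, had 559, 559 and 557 CPM in ADO libraries and 820.5, 791 and 805 CPM in DNT libraries, and Slc7a11, the cystine transporter, averaged 20.2 ± 1.44 CPM in ADO and 34.1 ± 1.33 CPM in DNT. Genes of folding in the endoplasmic reticulum fell in 20 of 25 cases (80.0%), and 3 did in the single fit. Hspa5, the chaperone BiP, had 2424, 2395 and 2379.9 CPM in ADO libraries and 3110.3, 3157 and 3142 CPM in DNT libraries, whereas the stress sensor genes Ern1 and Eif2ak3 rose, Ern1 to 97.8 ± 0.342 CPM in ADO, against 64.6 ± 1.96 CPM in DNT. Cytosolic chaperones fell in 18 of 25 cases and rose in 2, with Hspa8 at 3220.2 ± 29.2 CPM in ADO and 4490.5 ± 42.6 CPM in DNT; in the single fit 4 fell and 1 rose. Proteasome subunits fell in 23 of 31 cases, by a median log2 fold change of -0.11; with scaling by library size alone 15 fell, and in the single fit none fell.

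**Figure D4:**
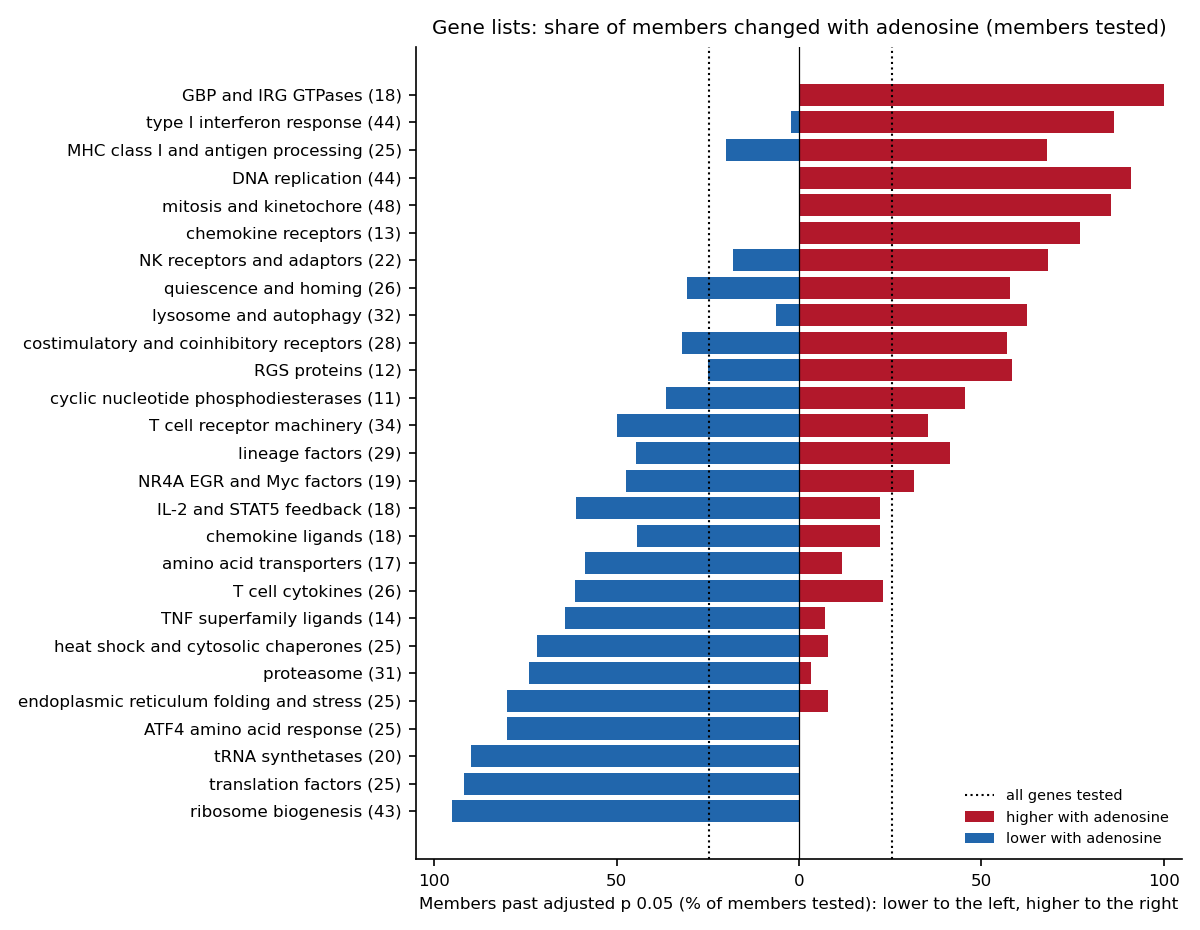
For 27 gene lists, the percent of tested members past adjusted p 0.05 that were higher (bars to the right) or lower (bars to the left) in ADO than in DNT, with the number tested in brackets. The dotted lines mark the same shares over all 14512 genes, 25.5% higher and 24.6% lower; the GBP and IRG list reaches 100% to the right and ribosome biogenesis 95.3% to the left.

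The plot of list shares places the interferon, DNA replication and mitosis lists furthest above the share of all genes on the higher side, and ribosome biogenesis, translation factors and tRNA synthetases on the lower side.

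Energy metabolism showed few large changes. Of 25 glycolysis genes, 11 rose and 8 fell. Hk2, the inducible hexokinase, had 194, 191 and 190.4 CPM in ADO libraries and 315, 302 and 308 CPM in DNT libraries (log2 fold change -0.68, SE 0.02, adjusted p = 5.29e-29), and the glucose transporter gene Slc2a3 averaged 111 ± 4.62 CPM in ADO and 147 ± 3.88 CPM in DNT. Slc16a3, which exports lactate, rose to 108 ± 2.96 CPM in ADO, against 63.4 ± 2 CPM in DNT, and Pfkfb4, which sets the level of a glycolytic activator, rose to 5.44 ± 0.245 CPM in ADO, against 2.36 ± 0.445 CPM in DNT. Nuclear oxidative phosphorylation genes rose in 16 and fell in 4 of 50 cases, but 26 rose with scaling by library size alone, and in the single fit 1 rose and none fell. Mitochondrially encoded genes fell in 6 of 12 cases, and in none in the single fit, with mt-Cytb at 2351 ± 50.1 CPM in ADO and 2836 ± 49 CPM in DNT, while mt-Rnr1, a mitochondrial ribosomal RNA outside that list, rose to 336 ± 19.2 CPM in ADO, against 208 ± 1.28 CPM in DNT. Tricarboxylic acid cycle genes rose in 7 and fell in 7 of 23 cases. In the hypoxia list 6 of 20 rose and 5 fell.

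Cytotoxic granule genes moved in both directions by small amounts. Of 24, 12 rose and 9 fell, none by 2-fold. Gzmb, the main killer protease and the most abundant gene of the list, had 19004, 19066 and 18918 CPM in ADO libraries and 21478, 22067 and 21482 CPM in DNT libraries, and Prf1, the pore former perforin, had 1322, 1332 and 1296 CPM in ADO libraries and 1830.3, 1822 and 1810.1 CPM in DNT libraries. Gzme and Gzmd, whose sequences are near-identical to other granzymes, rose: Gzme averaged 308 ± 3.73 CPM in ADO and 221 ± 12 CPM in DNT, and Gzmd averaged 501 ± 8.43 CPM in ADO and 398 ± 22.7 CPM in DNT. Rab27a, needed for granule release, fell to 110.5 ± 4.34 CPM in ADO, against 163 ± 3.62 CPM in DNT.

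Genes of survival and death were split. Bcl2l1, which encodes the survival protein BCL-XL, had 175, 174 and 179 CPM in ADO libraries and 339, 338 and 329.9 CPM in DNT libraries, 1.91-fold lower (log2 fold change -0.93, SE 0.02, adjusted p = 8.45e-35). Mcl1, another survival protein, rose to 344 ± 14.4 CPM in ADO, against 274 ± 4.39 CPM in DNT, and so did Bcl2l11, the death activator BIM, to 323 ± 4.53 CPM in ADO, against 263 ± 3.09 CPM in DNT. In all, 7 of 16 BCL2 family genes rose and 3 fell. Of 26 p53 targets and caspases, 15 rose and 6 fell. Perp, a p53 target of the cell membrane, had 80.8, 84.9 and 82.6 CPM in ADO libraries and 25.4, 27.2 and 29.4 CPM in DNT libraries, and Trp53inp1 averaged 83.2 ± 3.98 CPM in ADO and 39 ± 1.13 CPM in DNT.

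Genes were also ranked by the difference between their mean levels per transcript length, a ranking in which abundant genes lead by construction. In TPM, a unit that corrects counts for exon length, Ccl3, Gzmb, Ccl4, Xcl1 and Ifng lost most: Ccl3, an inflammatory chemokine, had a mean of 5064 ± 67.3 TPM in ADO and 9488 ± 33.4 TPM in DNT, and Gzmb had 41675 ± 26.7 TPM in ADO and 46068 ± 468 TPM in DNT. The largest gains were of B2m, the light chain of class I molecules, with 9124 ± 146 TPM in ADO and 7586 ± 126 TPM in DNT, and of Gzma, another granzyme, with 7530.1 ± 183 TPM in ADO and 6362 ± 116 TPM in DNT. H2-D1 and H2-K1, whose near-identical relatives make their counts uncertain, Tmsb4x and Plac8 also stood among the 10 largest gains. Of these Plac8, at 422 ± 7.1 CPM in ADO and 171 ± 2.72 CPM in DNT, changed most as a ratio.

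The lists of markers of other cell types gave the following levels, and their part in the results was not tested. Among the 18 macrophage and monocyte markers, the summed level was 252 to 276 CPM in ADO and 270.4 to 287 CPM in DNT, most of it from Ly6c2, and 6 of the 18 could be tested. Csf1r had at most 8 reads in a library, Adgre1 at most 13, and Vsig4 was at 0 in every library. Cd14, Lyz2, Fcgr3 and Cd68 rose, Cd14 to 2.37 ± 0.475 CPM in ADO, against 0.389 ± 0.145 CPM in DNT and Cd68 to 13.5 ± 2.07 CPM in ADO, against 8.31 ± 0.573 CPM in DNT. Ly6c2 and Fcgr1 fell, with log2 fold changes of -0.13 and -1.19. Fcgr1 had 4, 12 and 5 reads in ADO libraries and 15, 12 and 21 reads in DNT libraries, and its call was lost without replicate 1 or 3 of ADO (adjusted p = 0.121 and 0.106) or replicate 3 of DNT (0.144). Neutrophil markers summed to 2.7 to 3.25 CPM in ADO and 2 to 3.48 CPM in DNT, with 4 of 11 at 0 in every library. B cell and plasma cell markers summed to 26.9 to 29.3 CPM in ADO and 34.9 to 40.8 CPM in DNT, mostly Ighm. Dendritic cell markers summed to 153 to 158 CPM in ADO and 179 to 184 CPM in DNT, most of it from Bst2. Of the 5 tested, 2 rose and 2 fell. Itgax and Xcr1 rose, with log2 fold changes of 0.48 and 0.58, Batf3 and Zbtb46 fell, and Bst2 did not pass. Markers of red cells and platelets summed to 6.25 to 7.51 CPM in ADO and 3.44 to 4.08 CPM in DNT, mainly Itga2b, and Hbb-bs was at 0. Markers of stroma and endothelium summed to 74.6 to 79.7 CPM in ADO and 71.4 to 73.9 CPM in DNT, mostly Pecam1. NK and innate lymphoid markers summed to 576 to 595 CPM in ADO and 575 to 580 CPM in DNT, with Ncr1 too low to test. Of the 7 tested, 2 rose and 4 fell, so the sum held opposite moves. Kit had 130.1, 129.3 and 127.5 CPM in ADO libraries and 69.6, 69.3 and 70.8 CPM in DNT libraries. Eomes had 285.5, 287.7 and 270.3 CPM in ADO libraries and 366.8, 372.2 and 364.8 CPM in DNT libraries. Foxp3, the regulatory T cell factor, had at most 12 reads in a library.

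The adenosine effect was then set against the effect in cells given the A2aR inhibitor. Those 6 libraries form a separate set, so that inhibitor and set cannot be told apart. They also spread more: over 8479 genes averaging at least 10 CPM, the median SD of log2 CPM was 0.0454 in ADO, 0.0432 in DNT, 0.0815 in RA and 0.293 in R. Ribosomal protein reads made up 10.7% to 16.4% of the RA and R libraries and 5.46% to 5.59% of the ADO and DNT libraries, and mitochondrial reads made up 3.14% to 5.47% in RA and R and 1.62% to 1.70% in ADO and DNT. The RA and R libraries had 17751 to 19046 detected genes, against 21907 to 22150 in ADO and DNT. Replicate 3 of R was highest in both shares and lowest in detected genes. CPM values in this paragraph and the next are scaled over the 12 libraries and differ from those above. Of 14965 genes, the effect without inhibitor differed from that with inhibitor in 606 (4.05%), with 470 higher (3.14%) and 136 lower (0.909%). Without replicate 3 of R these counts were 1418 higher and 1633 lower, and without replicate 2 of R 724 and 744. Leaving out any library of ADO, DNT or RA gave 230 to 296 higher and 44 to 73 lower. The counts are therefore sensitive to which libraries enter, and leaving out replicate 1 of R was the exception, at 635 and 147.

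The 5 largest positive differences all lay in interferon-induced genes. Of 44 type I interferon genes, the difference was positive and past the threshold in 31, and in 36 without replicate 3 of R. Rsad2, which encodes the antiviral enzyme viperin, had 45.3, 46.1 and 48.5 CPM in ADO and 26.6, 27 and 27.1 CPM in DNT. With the inhibitor it had 0.731, 0.684 and 0.828 CPM in RA and 12.4, 11.6 and 8.82 CPM in R. Adenosine thus raised Rsad2 without inhibitor (log2 fold change 0.80) and lowered it with inhibitor (-3.85, adjusted p = 0.000346), a difference of 4.66 on the log2 scale (SE 0.201, adjusted p = 1.21e-07). Oasl1, Rtp4, Ifit3 and Ifit1bl1 differed in the same direction, by 3.69, 3.64, 3.65 and 5.36. With inhibitor, Ifit3 and Ifit1bl1 were near the lower limit of detection. Ifit3 averaged 0.229 ± 0.129 CPM in RA and 0.935 ± 0.184 CPM in R. Ifit1bl1 averaged 0.157 ± 0.135 CPM in RA and 1.05 ± 0.731 CPM in R, and was not tested in RA against R alone. Rgs2 averaged 79.2 ± 1.39 CPM in ADO and 25.8 ± 1.02 CPM in DNT, but 81.9 ± 1.09 CPM in RA and 94.7 ± 35.7 CPM in R (SD, n = 3 each). Its difference was 1.82 (adjusted p = 0.00248), and 1.46 without replicate 3 of R. Of the 20 largest rises Igf1r, Tgfb3, Dgat1, Ier5l and Tnfrsf26 also had a larger effect without inhibitor, and Ramp3 a smaller one (difference -1.22). The differences of Tgfb3 and Dgat1 lost their calls when any of the 6 ADO and DNT libraries was left out (adjusted p from 0.0661 to 0.0801 and from 0.0684 to 0.0968), and without replicate 2 or 3 of RA (0.0788 and 0.0801 for Tgfb3, 0.0864 and 0.0832 for Dgat1). That of Tgfb3 also did so without replicate 2 of R (0.0767). Scaling by library size only ended the calls of Igf1r (0.0548), Tgfb3 (0.109) and Dgat1 (0.292). Of the 20 largest falls, Ccl1, Il10, Pdgfb, Crybg2, Stra6, Cyp1b1 and Batf3 had a more negative effect without inhibitor. That of Pdgfb lost its call when any of the 9 libraries of ADO, DNT and RA was left out (adjusted p from 0.0518 to 0.0788), and with scaling by library size only (0.12). Il2 fell in both sets, by log2 fold changes of -2.87 without and -2.70 with inhibitor, and the difference of -0.14 did not pass (SE 0.286, adjusted p = 0.869); without replicate 3 of R it was -0.46 (adjusted p = 0.0909). Plaur rose in both, at 2.66 without and 2.64 with inhibitor, with a difference of 0.03 (SE 0.295, adjusted p = 0.989), and of -0.17 without replicate 3 of R (adjusted p = 0.701). Neither value shows that the effects are alike.

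**Figure D5:**
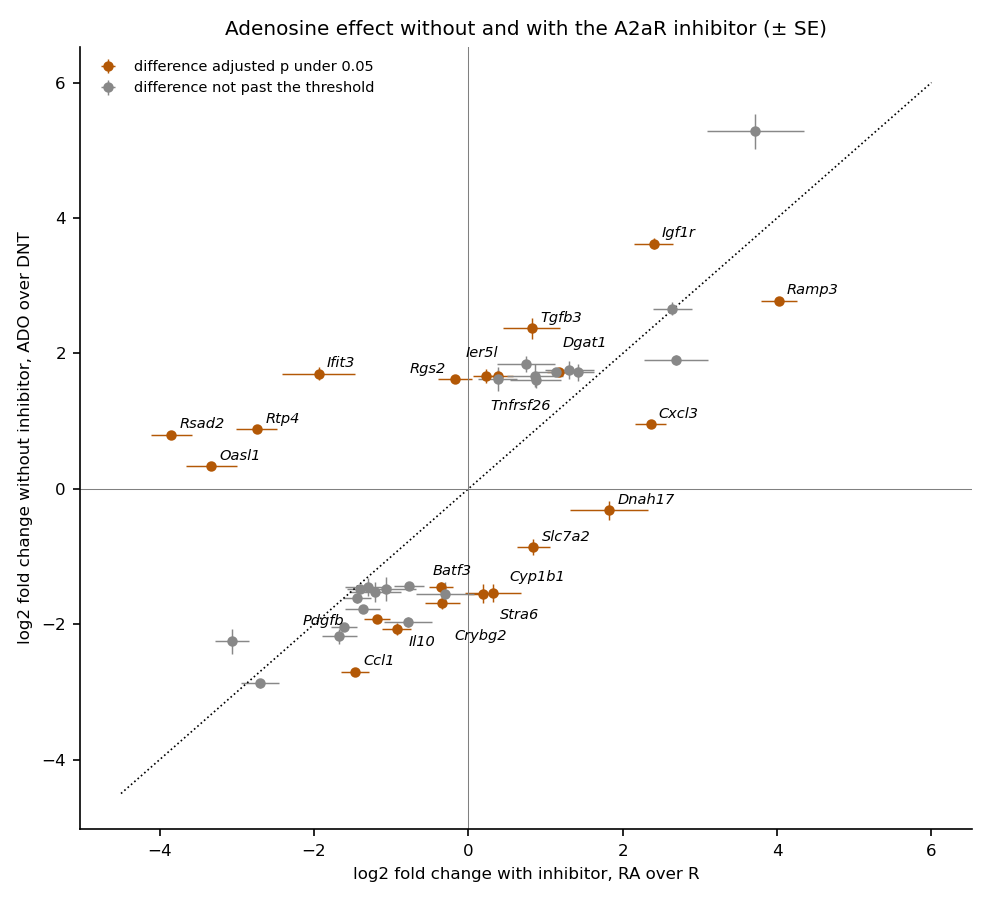
Log2 fold change with adenosine without inhibitor (ADO over DNT, vertical) against that with inhibitor (RA over R, horizontal), with SE bars, for the 20 largest rises, the 20 largest falls and the genes with the largest differences that were tested in both sets. The dotted line marks equal effects; Rsad2, Rtp4, Oasl1 and Ifit3 lie in the upper left, with a positive value without and a negative one with inhibitor, and among these the negative value of Ifit3 did not pass the test (adjusted p = 0.0921).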

How the data were processed

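RNA sequencing libraries of 6 samples, and of 12 for the comparison with the inhibitor, were analysed from the tables of whole-number read counts per gene that the authors deposited. Reads were mapped to GRCm38 with HISAT2 2.1.0, per the submitters' processing notes; the counting tool, annotation release and use of strand were not given in the sources used here. Of 53465 gene IDs, 99.8% had a symbol in GENCODE M21. Counts were scaled by the trimmed mean of M-values, genes with low counts removed by filterByExpr, and tested with edgeR 4.0.16 (R 4.3.3; robust quasi-likelihood F test, Benjamini-Hochberg adjustment over all genes tested, threshold 0.05). The SE is the log2 fold change divided by the square root of F. TPM came from merged exon lengths. DESeq2 1.42.0, limma-voom 3.58.1 and other settings served as alternatives, and the scripts were tested on simulated counts. Same-numbered ADO and DNT libraries did not deviate together (correlations from -0.00018 to 0.0231), so no pairing was used. Duplicate libraries were not found: replicate pairs differed by 1.92 to 2.39 in chi-square per gene. The 20 largest rises and falls were named (at least 5 CPM in a group, groups apart). So were the 10 largest changes in TPM each way. Further named genes lay under 0.5 CPM in 1 group and at 2 CPM or more in the other. Each list added up to 5 rises and 5 falls, and the adenosine and cyclic AMP lists all members. The 5 largest differences each way were named among genes past the threshold with at least 5 CPM in a group. Gene model names, pseudogenes and receptor or antibody segments were left out of these rankings. A few genes that the rule names are not reported here. These rules, the 69 gene lists and the comparison were chosen with earlier results of these data known.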

Additional observations from a re-analysis of the deposited data

Results flagged for a closer look

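The difference between the adenosine effect without and with the inhibitor drew attention in 470 genes where it was positive and 136 where it was negative, by edgeR's test of the difference itself. Among the 20 largest rises the log2 difference was positive for Ifit1bl1 at 5.36, Ifit3 at 3.65, Rgs2 at 1.82, Tgfb3 at 1.57, Ier5l at 1.46, Tnfrsf26 at 1.28, Igf1r at 1.23 and Dgat1 at 0.57, and it was negative for Ramp3 at -1.22. Among the 20 largest falls it was -1.85 for Cyp1b1, -1.72 for Stra6, -1.32 for Crybg2, -1.21 for Ccl1, -1.11 for Il10, -1.08 for Batf3 and -0.72 for Pdgfb. The largest positive differences over all genes also included Rsad2 at 4.66, Oasl1 at 3.69 and Rtp4 at 3.64. The largest negative ones included Dnah17 at -2.13, Slc7a2 at -1.69 and Cxcl3 at -1.39. Without replicate 3 of R, each of these genes still passed the threshold, but so did all 606 genes called with every library. This therefore sets none of them apart. The calls of Tgfb3, Dgat1 and Pdgfb were lost without single libraries of ADO, DNT or RA, as given above. The levels of Ifit1bl1, Ifit3, Cyp1b1 and Dnah17 were near the lower limit of detection in both RA and R. The call of Dnah17 was lost when any of 7 other libraries was left out (replicates 1 to 3 of ADO, 1 and 2 of DNT, 1 of R and 2 of RA), at an adjusted p of 0.0526 to 0.0658 in edgeR. The inhibitor libraries form a separate set, so the part of the inhibitor and that of the set cannot be told apart.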

How the results depend on the processing

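Over 15 alternatives, no called gene named here reversed its direction; among those not called, Adcy4, Adora3, Akap11, Crtc2, Nt5c3 and Rapgef4 changed sign under at least 1, as did the difference of Plaur. Of the 248 named genes called for adenosine against untreated cells, 136 kept their call under every alternative and 112 lost it under at least 1, mostly in a single fit of all 18 libraries or in the test against a log2 fold change of 0.5. The count of higher and lower genes (3707 and 3574) ran from 3087 to 3767 and from 3122 to 3646 under size factors, DESeq2, limma-voom, 2 other filters and the replicate block. The single fit of 18 libraries gave 1439 and 870, and the test against 0.5 gave 513 and 263. Scaling by library size alone gave 4418 and 2850, raised the share of higher genes among the calls to 60.8% from 50.9% and moved the median log2 fold change of all genes to 0.048; it turned the sign of the median of 7 lists (the SLAM family, adenosine handling, hypoxia, integrins, the tricarboxylic acid cycle, and the markers of neutrophils and of gamma-delta and regulatory T cells). Leaving out 1 library at a time gave 3389 to 3526 higher and 3292 to 3379 lower. The single fit also lowered list counts, to 26 of 44 type I interferon genes, 15 DNA replication, 21 mitosis and 23 ribosome biogenesis genes, 3 translation factors and 7 tRNA synthetases, and to none of the proteasome or ribosomal protein genes. For the difference between the effects without and with inhibitor (470 and 136), library size alone gave 168 and 72, DESeq2 848 and 539, the replicate block 309 and 70 (without the calls of Tgfb3 and Dgat1), the test against 0.5 115 and 18, and the single fit 618 and 391. Leaving out 1 library gave 230 to 1418 higher and 44 to 1633 lower. The cause was not tested. The replicate block for adenosine against untreated cells gave 3767 and 3631; same-numbered libraries share only a number. Depth limits genes under about 1 CPM, such as Prkar1b, P2rx1 and Wipi1.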

Other observations

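Lysosome and autophagy genes rose in 20 of 32 cases (62.5%) and fell in 2, with a median log2 fold change of 0.14. Map1lc3b, which encodes the autophagosome protein LC3B, averaged 78.7 ± 0.625 CPM in ADO and 50.7 ± 0.924 CPM in DNT. Cholesterol synthesis genes rose in 13 of 25 cases (52.0%) and fell in 2, with Acat2, which condenses acetyl groups, at 17.8 ± 0.252 CPM in ADO and 10.8 ± 0.304 CPM in DNT. Genes of the oxidative stress response rose in 12 of 23 cases (52.2%) and fell in 4, with Gpx4, which reduces lipid peroxides, at 73.3 ± 1.2 CPM in ADO and 48.3 ± 2.82 CPM in DNT. Purine and pyrimidine synthesis genes fell in 12 of 22 cases (54.5%) and rose in 3. With scaling by library size alone 8 fell and 6 rose. In the single fit of all 18 libraries, 6 lysosome and autophagy genes rose and 1 fell. For cholesterol synthesis 4 rose and none fell in that fit, and for oxidative stress 2 rose and 2 fell. For purine and pyrimidine synthesis 1 rose and 2 fell. Wipi1, at under 1 CPM, was the only called member of these 4 lists that changed by 2-fold or more, and its call was lost without replicate 1 of DNT (adjusted p = 0.0704 in edgeR's quasi-likelihood test).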
